A study of Danio rerio with 6 samples.

Results

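The male gonad genes dmrt1, amh and gsdf were followed through the zebrafish germline. The rows were those with the Ensembl IDs ENSDARG00000007349 (dmrt1), ENSDARG00000014357 (amh) and ENSDARG00000075301 (gsdf), which are 3 of the 32253 features listed. They were chosen by name, as genes of testis determination and of Sertoli cells. The fish were wild-type TLAB adults, and 6 libraries were sequenced: 2 of the whole testis, taken by dissection, 2 of mature oocytes, obtained by squeezing, and 2 of the whole ovary, taken by dissection. No treatment or mutation was applied to any group, and the age of the fish beyond adult is not given. Nothing states that the 2 libraries of each group are of separate fish, so p-values measure the spread between these libraries, which may be technical.

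Zebrafish of laboratory strains have no single master sex gene, and the gonad passes through an ovary-like stage before it becomes a testis or an ovary. Dmrt1 is a transcription factor with a DM zinc finger that is required for zebrafish testis development. Amh and Gsdf are secreted proteins of the TGF-beta family. Amh, the anti-Müllerian hormone, is made by Sertoli cells, the somatic cells that surround and nurse male germ cells, and it restrains germ cell proliferation. Gsdf, the gonadal soma derived factor of fish, is made by Sertoli cells and by the granulosa cells that surround oocytes. Zebrafish lack a gene for the dedicated Amh receptor, and a BMP type II receptor has been reported to act in its place.

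Levels are FPKM, fragment numbers divided by transcript length and by library size, as the authors deposited them. Division by length allows genes to be compared with each other within a library. Comparisons between tissues also depend on the scaling between libraries, which is not given in the sources used here. Differences are in log2(FPKM + 1). A feature passed the test when the Benjamini-Hochberg adjusted p-value of limma over all 13717 tested features was under 0.05 and the absolute difference was at least 1. Features were tested when they reached 1 FPKM in at least 2 libraries. All 3 genes did so, but 2 of them, dmrt1 and amh, would not have done so without the testis libraries, since outside testis dmrt1 reached 1 FPKM in oocyte replicate 2 alone and amh in no library. Of all tested features, 1906 likewise needed the testis libraries and 3852 the oocyte and ovary libraries. A feature that was tested only because 1 tissue is high had in effect to be higher in that tissue, so its call is no support for the difference.

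Between 10329 and 11171 features reached 1 FPKM per library, and absolute depth is unknown. From the steps of rarely read features, replicate 1 held 1.28 times the depth of replicate 2 in testis, 0.844 times in oocyte and 1.35 times in ovary. These ratios are of depth only if FPKM was divided by library totals with no further scaling, which is not known. The median tested feature differed by -0.82 between testis and ovary and by -0.79 between testis and oocyte, and 3 other scalings gave medians of -0.50 to -0.14 and of -0.52 to -0.13. Tissue labels were checked against lists of marker genes. The summed level of 11 meiosis and sperm genes was 283 to 357 FPKM in testis, 8.02 to 10.8 FPKM in oocyte and 10.2 to 13.7 FPKM in ovary. That of 9 oocyte genes was 16.7 to 17.2 FPKM in testis, 1846 to 2133 FPKM in oocyte and 5755 to 7591 FPKM in ovary. The check rests on these sums and not on calls, since 9 of the 11 meiosis and sperm genes were tested only through testis and 4 of the 9 oocyte genes only through oocyte and ovary.

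**Figure D1:**
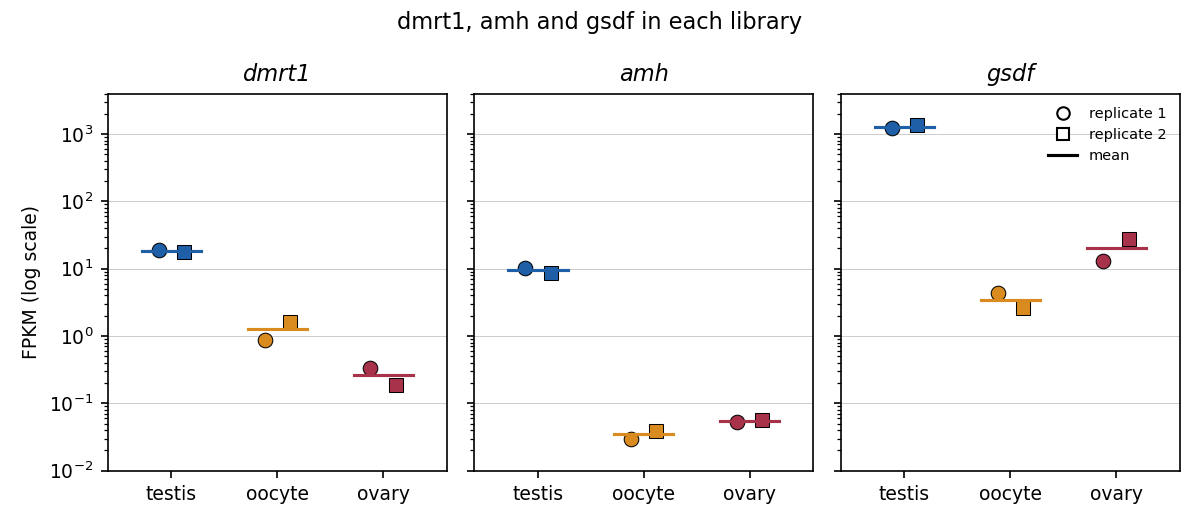
FPKM on a log axis of dmrt1, amh and gsdf (panels) in each library of testis, oocyte and ovary, with circles for replicate 1, squares for replicate 2 and lines for the mean of 2 libraries. The testis libraries lie above all others for each gene; dmrt1 is next highest in oocyte, at 0.883 and 1.63 FPKM, and gsdf in ovary, at 13.1 and 28 FPKM.

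The transcription factor dmrt1 was listed at 18.7 and 17.9 FPKM in testis replicates 1 and 2, at 0.883 and 1.63 FPKM in the oocyte libraries, and at 0.331 and 0.188 FPKM in the ovary libraries. Both testis libraries were high, and no value of one tissue overlapped those of another. The order of the tissues was testis, oocyte, ovary, with means of 18.3 ± 0.552, 1.26 ± 0.529 and 0.259 ± 0.101 FPKM (SD, n = 2 each). In testis, 11.2% and 12.5% of the tested features lay above dmrt1. In oocyte 78.5% and 70.2% did so, and in ovary 87.9% and 91.4%.

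The hormone gene amh was listed at 10.4 and 8.65 FPKM in testis, at 0.0298 and 0.0392 FPKM in oocyte, and at 0.0526 and 0.0561 FPKM in ovary. Both testis libraries held it at a moderate level, while it was close to 0 in every female library. Its means were 9.53 ± 1.24 FPKM in testis, 0.0345 ± 0.00667 FPKM in oocyte and 0.0543 ± 0.00247 FPKM in ovary (SD, n = 2 each). Between 94.4% and 95.7% of the tested features lay above amh in each oocyte and ovary library.

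The growth factor gene gsdf was listed at 1217 and 1346 FPKM in testis, at 4.32 and 2.61 FPKM in oocyte, and at 13.1 and 28 FPKM in ovary. It was among the most abundant features of the testis, at rank 60 and rank 67 of all 32253 features. Its means were 1282 ± 90.6 FPKM in testis, 3.46 ± 1.21 FPKM in oocyte and 20.5 ± 10.5 FPKM in ovary (SD, n = 2 each). The ovary libraries lay above the oocyte libraries without overlap, and ovary replicate 2 was the higher of its pair. In ovary, 30.7% and 16.9% of the tested features lay above gsdf. The ovary thus held it above the median tested feature, which was at 5.32 and 5.27 FPKM in ovary replicates 1 and 2.

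The comparison of testis with ovary addresses how far these genes separate the male from the female organ. All 3 genes were higher in testis and passed the test. Of all tested features, 16.4% passed as higher in testis and 43.8% as lower, but the calls of dmrt1 and amh draw no support from this share, since both were tested only through their testis values. The gene gsdf reached 1 FPKM in every oocyte and ovary library and would have been tested without testis. The mean of dmrt1 was 70.5 times that in ovary, and the library values gave folds of 54.1 to 99.2. For amh the fold of means was 175, with library values giving 154 to 198, and for gsdf it was 62.5, with library values giving 43.5 to 103. These folds are of FPKM, and that of amh rests on ovary values near 0.

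On the log2(FPKM + 1) scale, testis exceeded ovary by 3.94 for dmrt1 (SE 0.217, limma adjusted p = 3.04e-05). The difference was 3.31 for amh (SE 0.147, limma adjusted p = 1.66e-05) and 5.99 for gsdf (SE 0.377, limma adjusted p = 4.36e-05). Relative to the median of all tested features they were 4.76, 4.13 and 6.80 for dmrt1, amh and gsdf. The difference of gsdf had rank 45 among 13717 from the highest, that of dmrt1 rank 252 and that of amh rank 413. The added 1 FPKM compresses the change of low genes. With 0.1 FPKM added in place of 1, the difference of amh became 5.96, close to that of gsdf, and that of dmrt1 became 5.71. The rank of amh below the other genes therefore depends on this constant. In whole organs, fewer cells of a type and less RNA per cell cannot be told apart.

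The comparison of testis with mature oocytes sets the male organ against the female germ cell. All 3 genes were higher in testis and passed the test, with the same limit for dmrt1 and amh. Of all tested features, 22.3% passed as higher and 45.6% as lower. The fold of means was 14.6 for dmrt1, 276 for amh and 370 for gsdf. Testis exceeded oocyte by 3.12 in log2(FPKM + 1) for dmrt1 (SE 0.217, limma adjusted p = 3.78e-05), by 3.34 for amh (SE 0.147, limma adjusted p = 1.11e-05) and by 8.19 for gsdf (SE 0.377, limma adjusted p = 1.17e-05). The gsdf difference was at rank 9 among 13717. With 0.1 FPKM added in place of 1, the difference of amh was 6.16.

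**Figure D2:**
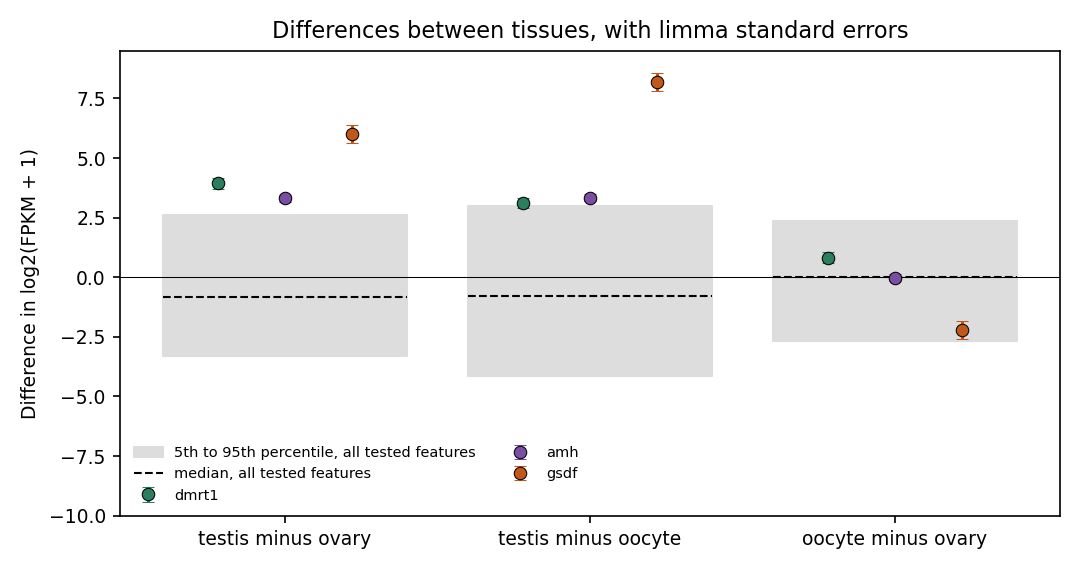
Difference in log2(FPKM + 1) between tissues for dmrt1, amh and gsdf, with bars of 1 limma standard error, over a grey band from the 5th to the 95th percentile of all 13717 tested features and a dashed line at their median. The 3 genes lie above the band in testis minus ovary, and in oocyte minus ovary they spread from -2.20 for gsdf to 0.82 for dmrt1.

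The comparison of mature oocytes with whole ovary asks which part of the ovary's signal the egg holds. It separated the genes. The test called gsdf lower in oocyte, by a difference of -2.20 in log2(FPKM + 1) (SE 0.377, limma adjusted p = 0.00282), against 22.2% of all tested features that passed as lower. The oocyte mean of gsdf was 0.169 times the ovary mean, and library values gave 0.0932 to 0.33.

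For dmrt1 the oocyte mean was 4.84 times the ovary mean, and both oocyte libraries lay above both ovary libraries. The difference of 0.82 in log2(FPKM + 1) (SE 0.217, limma adjusted p = 0.0162) was under the size of 1 that the test required, so dmrt1 did not pass. It passed with 0.1 FPKM added in place of 1, at 1.89 (limma adjusted p = 0.00445), after rescaling without features above 10000 FPKM, at 1.23 (limma adjusted p = 0.029), and without oocyte replicate 1, at 1.07 (limma adjusted p = 0.00729). Its direction was the same under each alternative run, and adjusted p-values ranged from 0.00445 to 0.0878. Of all tested features, 26.8% passed as higher in oocyte.

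For amh the difference between oocyte and ovary was -0.03 in log2(FPKM + 1) (SE 0.147, limma adjusted p = 0.904), with an oocyte mean of 0.635 times the ovary mean. At such levels the scale hardly registers a change. The oocyte values lay below the ovary values without overlap, but the sign of the difference turned under quantile normalization, to 0.0026.

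The level of one gene relative to another within a library does not depend on the scaling between libraries. In testis, gsdf was 65.2 and 75.2 times dmrt1. In oocyte it was 4.89 and 1.60 times dmrt1, and in ovary 39.5 and 149 times dmrt1. The ratio in testis thus fell within the range of the ovary libraries, and the oocyte ratio lay below both. The mean log2 ratio in oocyte minus that in ovary was -4.78, with an exact two-sided permutation p of 0.333, the smallest that 2 libraries against 2 allow.

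The ratio of dmrt1 to amh was 1.80 and 2.07 in testis. In oocyte dmrt1 was 29.6 and 41.6 times amh, and in ovary 6.29 and 3.36 times amh. The testis libraries had the lowest ratios and the oocyte libraries the highest. The ratio of gsdf to amh was 117 and 156 in testis, 145 and 66.5 in oocyte, and 249 and 499 in ovary, and the testis and oocyte values overlapped.

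Of the 13717 tested features, 1929 passed as higher in testis than in ovary and also in testis than in oocyte, the class that holds all 3 genes. In that class 151 features, gsdf among them, also passed as lower in oocyte than in ovary, which is 7.83% of the class, against 22.2% of all tested features. Neither dmrt1 nor amh passed between oocyte and ovary, as was so for 1747 of the class, or 90.6%, against 51.0% of all tested features. A difference in the direction of dmrt1, higher in oocyte than in ovary with an adjusted p under 0.05 at any size, was found for 67 of the class, or 3.47%, against 34.6% of all tested features. The class was chosen for high testis levels, and these shares were not tested. Features tested only through testis, as dmrt1 and amh were, are low in oocyte and ovary. At such levels the scale compresses changes, so they could hardly pass between these tissues in either direction. Among all tested features 1906 were of this kind, and their number in the class was not counted. The 3 contrasts of shares are therefore no support for a difference between the class and other features.

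The other DM domain genes were scarce. The 4 rows other than dmrt1 (DMRT2, dmrt2b, DMRT3 and DMRTA2) stayed under the test's limit, and their summed level was 0.701 to 0.893 FPKM in testis, 0.0949 to 0.257 FPKM in oocyte and 0.166 to 0.541 FPKM in ovary. DMRT3, which neighbours dmrt1 on the chromosome, was listed at 0.484 and 0.443 FPKM in testis, at 0.00597 and 0.00505 FPKM in oocyte and at 0.00392 and 0.0159 FPKM in ovary. Its testis values were the highest of the 6, at a level far below that of dmrt1.

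Other ligands of the TGF-beta family and the follistatins that bind them did not share 1 pattern. Of 9 rows, 4 were tested against ovary, of which 2 passed as higher in testis and 2 as lower (16.4% and 43.8% of all tested features). Their median was -1.05 against -0.82 for all tested features. The 2 higher were tested only through testis, and the 2 lower only through oocyte and ovary. The inhibin alpha subunit gene inha was at 4.61 and 3.6 FPKM in testis, at 0.114 and 0.0175 FPKM in oocyte and at 0.531 and 1.20 FPKM in ovary, and it passed as higher in testis than in ovary by 1.47 (limma adjusted p = 0.0011). A follistatin gene, FST (ENSDARG00000057992), passed as higher in testis by 1.45 (limma adjusted p = 0.00172). The oocyte growth factors bmp15 and GDF9 passed as lower in testis than in ovary, at differences of -5.11 and -3.54 (limma adjusted p = 8.56e-06 and 5.01e-05). Among untested rows, those of INHBA, an INHBB row (ENSDARG00000040777) and another FST row were highest in both testis libraries, at 1.20 FPKM or less. The other INHBB row was not. Sums over the 9 rows were 8.13 to 11.2 FPKM in testis, 75 to 76.1 FPKM in oocyte and 69.6 to 76.6 FPKM in ovary. Most of the oocyte and ovary sums was bmp15, at means of 65.7 and 55.0 FPKM.

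Receptors and signal carriers of the BMP branch, through which zebrafish Amh has been reported to act, were counted next. Of 19 rows, 17 were tested, 2 of them only through testis and 4 only through oocyte and ovary. Against ovary, 3 passed as higher in testis and 10 as lower (16.4% and 43.8% of all tested features), with a median of -1.08 against -0.82 for all. The 2 rows tested only through testis were among the 3 higher, and some of the 4 were among the 10 lower. Quantile normalization gave 5 higher and 5 lower. Against oocyte, 2 passed as higher in testis and 11 as lower, against 22.3% and 45.6% of all tested features. The type I receptor acvr1l was at 1.68 and 1.19 FPKM in testis, 18.7 and 44.4 FPKM in oocyte and 6.79 and 6.46 FPKM in ovary. It passed as lower in testis than in ovary, at a difference of -1.65 (limma adjusted p = 0.0087), though not without testis replicate 1 (-1.80, limma adjusted p = 0.0536) or without testis replicate 2 (-1.51, limma adjusted p = 0.0828). Over all alternatives run for this gene, these were the losses of the call.

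The signal carrier SMAD5 was at 21.4 and 31.3 FPKM in testis, 298 and 354 FPKM in oocyte and 70.4 and 65.9 FPKM in ovary. It passed as higher in oocyte than in ovary by 2.24 (limma adjusted p = 0.00047). Its difference of -1.36 between testis and ovary did not pass under any of 3 other scalings. SMAD1, another carrier of the same branch, passed as higher in testis than in ovary by 1.60 (limma adjusted p = 5.94e-05). It was tested only through testis, so this call is no support for the difference. The 2 BMPR2 rows, which are among the type II receptors of this branch, were too low to be tested. The higher of them, ENSDARG00000011941, was at 1.01 and 0.714 FPKM in testis, 0.0142 and 0.0724 FPKM in oocyte and 0.041 and 0.0697 FPKM in ovary. Testis values of this receptor lay above all female values, and the oocyte and ovary values overlapped. Rows of ACVR2A, acvr2ab and ACVR2B, also type II receptors, were tested, and an ACVR2B row (ENSDARG00000103108) reached 30.1 FPKM in oocyte replicate 2.

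In log2(FPKM + 1), other tested Sertoli cell and testis somatic genes differed less from ovary than dmrt1, amh and gsdf did. Their testis means were only 0.613 to 4.07 FPKM. The added 1 FPKM compresses changes at such levels and limits the difference that they could reach. Of 14 rows, 5 were tested, and 0 passed in either direction between testis and ovary in limma on the deposited scale (3 had an unadjusted p under 0.05, and 1 passed as higher after rescaling without features above 10000 FPKM). Of all tested features, 16.4% passed as higher and 43.8% as lower. The median difference of the 5 was -0.06, against -0.82 for all tested features, and it became 0.23 to 0.48 under the other scalings. The summed level of the list was 9.89 to 16.1 FPKM in testis, 4.37 to 4.68 FPKM in oocyte and 9.68 to 12.5 FPKM in ovary, so that testis and ovary overlapped. Against oocyte 2 of the 5 passed as higher in testis, beside 22.3% of all tested features. Of these 2, 1 was tested only through testis, and 2 of the 5 were tested only through oocyte and ovary.

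Within that list, a SOX9 row (ENSDARG00000003293) was at 0.554 and 0.960 FPKM in testis, 0.0328 and 0.0525 FPKM in oocyte and 0.0341 and 0.075 FPKM in ovary. Another SOX9 row (ENSDARG00000043923) was at 2.0 and 0.747 FPKM in testis, 2.05 and 2.20 FPKM in oocyte and 2.81 and 3.44 FPKM in ovary. SOX9 is the transcription factor gene of Sertoli cells in mammals, and zebrafish carry a pair of copies. The receptor for follicle stimulating hormone, FSHR, was at 0.543 and 0.469 FPKM in testis, was listed at 0 in both oocyte libraries, and was at 0.0286 and 0.0848 FPKM in ovary. The first SOX9 row and FSHR were highest in testis but stayed under the limit for testing.

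Of 9 rows for genes of Leydig cells, the steroid-producing cells of the testis, 8 were tested. Between testis and ovary, 5 passed as higher in testis and 2 as lower (16.4% and 43.8% of all tested features). The median of the 8 was 1.80 against -0.82 for all. Of these 8 rows, 3 were tested only through testis and 2 only through oocyte and ovary. The Leydig cell hormone insl3 was at 976 and 1899 FPKM in testis, 4.84 and 3.05 FPKM in oocyte and 2.88 and 4.65 FPKM in ovary. It exceeded ovary by 8.18 (limma adjusted p = 1.94e-05). The cholesterol carrier STAR and the androgen enzyme gene cyp11c1 exceeded ovary by 4.33 and 5.46 (limma adjusted p = 1.03e-05 and 1.38e-05). Both were tested only through testis. The 2 that passed as lower were a CYP11A1 row (ENSDARG00000002347), at -3.78, and hsd3b2, at -4.52, and both were tested only through oocyte and ovary. The summed level was 1059 to 2004 FPKM in testis, 118 to 170 FPKM in oocyte and 49.7 to 85.2 FPKM in ovary. Most of this sum was insl3 in testis and, in oocyte, the named CYP11A1 row, at 78.8 and 145 FPKM.

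Genes of granulosa cells and of the ovary soma were tested for 4 of 11 rows. Between testis and ovary, 2 passed as higher in testis and 2 as lower (16.4% and 43.8% of all tested features), with a median of 0.18 against -0.82. The 2 higher were tested only through testis, and the 2 lower only through oocyte and ovary. The aromatase CYP19A1, the enzyme that makes estrogen, was at 0.0645 and 0.0413 FPKM in testis, 0.285 and 0.0471 FPKM in oocyte and 4.65 and 11.5 FPKM in ovary. It was lower in testis than in ovary, at a difference of -3.00 (limma adjusted p = 0.000474), and lower in oocyte than in ovary, at -2.86 (limma adjusted p = 0.000849). CYP19A1 reached 1 FPKM in the ovary libraries alone, so neither call is support for its difference. Sums over the list were 6.45 to 9.20 FPKM in testis, 1.07 to 1.45 FPKM in oocyte and 8.81 to 16.8 FPKM in ovary.

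Within the ovary pair, gsdf and CYP19A1 were both higher in replicate 2, and the rest of the granulosa list differed less than CYP19A1 in its sum. In ovary replicate 1 gsdf was at 13.1 FPKM, CYP19A1 at 4.65 FPKM and the granulosa list at a sum of 8.81 FPKM. In ovary replicate 2 gsdf was at 28 FPKM, CYP19A1 at 11.5 FPKM and the granulosa list at a sum of 16.8 FPKM. Without CYP19A1 the sum was 4.15 FPKM in replicate 1 and 5.28 FPKM in replicate 2. Of all 11 rows, CYP19A1 included, 9 were higher in replicate 2 and 2 were lower. At least 1.5 times as high in replicate 2 were 5 rows, CYP19A1 among them. Of these, an FST row (ENSDARG00000057992), lhcgr and NR5A2 were at 0.139 FPKM or less in both ovary libraries. The FOXL2 rows hardly differed, at 0.893 and 0.946 FPKM and at 1.42 and 1.43 FPKM in replicates 1 and 2. The connective tissue list was at 62.6 FPKM in ovary replicate 1 and 95.3 FPKM in ovary replicate 2. For dmrt1 the order was the reverse, with 0.331 FPKM in replicate 1 and 0.188 FPKM in replicate 2. The part of somatic cell content in the level of gsdf was not tested.

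Of the lists of other cell types, those of blood cells and connective tissue had more calls higher in testis than lower, beside 16.4% higher and 43.8% lower for all tested features. Of 8 germ cell genes tested, 2 passed as higher in testis and 2 as lower on the deposited scale (median 0.57), with 4 or 5 higher and 1 or 2 lower under the other scalings. NANOS3, 1 of the 2 lower, was tested only through oocyte and ovary. The sum of the germ cell genes was 304 to 305 FPKM in testis, 286 to 378 FPKM in oocyte and 214 to 244 FPKM in ovary. Of 4 white blood cell genes tested, 3 passed as higher in testis (median 1.79), with sums of 48.7 to 57.9 FPKM in testis, 16.0 to 18.7 FPKM in oocyte and 9.72 to 11.1 FPKM in ovary. Both red blood cell genes tested passed as higher in testis, but 1 of these 2 was tested only through testis. The sum of the list with its vessel genes was 21.6 to 82.6 FPKM in testis, 0.667 to 0.943 FPKM in oocyte and 2.51 to 6.61 FPKM in ovary.

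Connective tissue genes passed as higher in testis than in ovary in 7 of 7 cases (median 2.01), and 1 of the 7 was tested only through testis. Their sums were 454 to 748 FPKM in testis, 10.2 to 30.0 FPKM in oocyte and 62.6 to 95.3 FPKM in ovary. The medians of these lists stand against -0.82 for all tested features. No row of the 4 lists was at 0 in both libraries of a tissue. The part of these cell types in the levels of dmrt1, amh and gsdf was not tested.

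**Figure D3:**
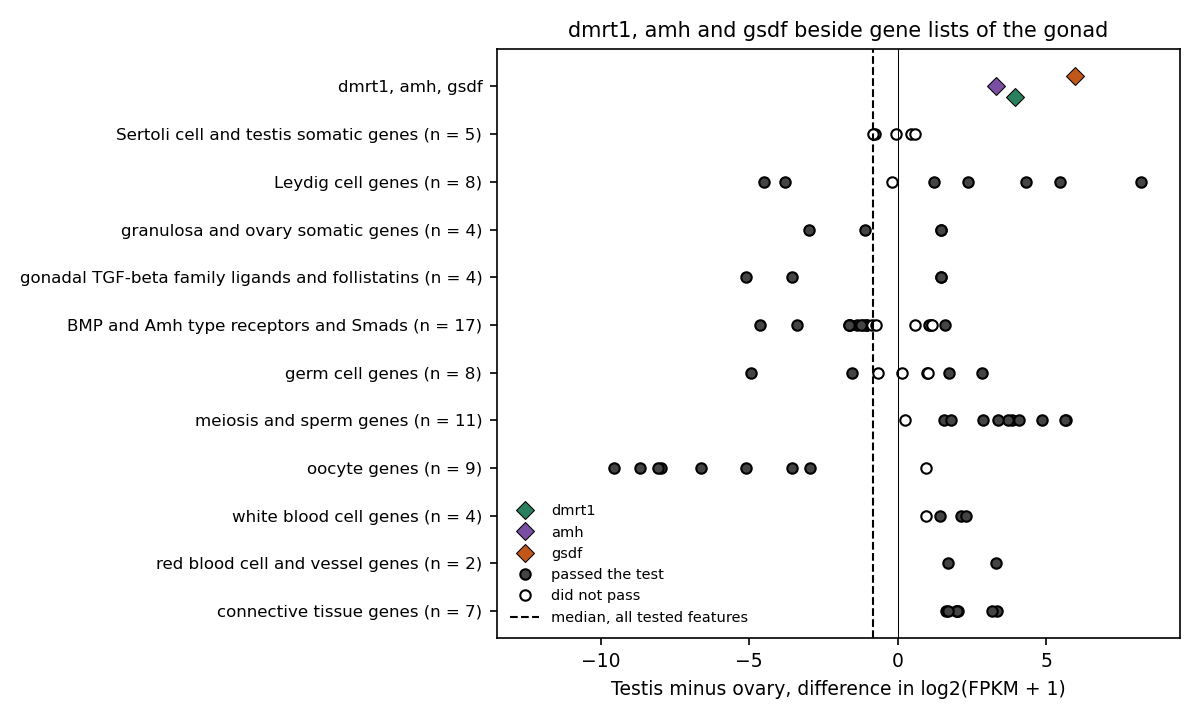
Difference between testis and ovary in log2(FPKM + 1) for dmrt1, amh and gsdf (diamonds) and for the tested rows of gene lists of the gonad (circles, filled where the test was passed), with a dashed line at the median of all tested features, -0.82. The 3 genes lie at 3.31 to 5.99, and the 5 tested Sertoli cell and testis somatic genes lie at -0.84 to 0.58. Testis means of these 5 were only 0.613 to 4.07 FPKM, which limits their differences on this scale.

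Features with the most similar profile were sought over the 6 libraries, by the Euclidean distance of log2(FPKM + 1). The features closest to amh were bbof1b at a distance of 0.0486, TTLL2 at 0.143 and si:zfos-1169d6.3 at 0.149. These profiles were nearly the same as that of amh on this scale, which compresses values near 0. For example, bbof1b was at 10.6 and 8.82 FPKM in testis, 0.0286 and 0.0302 FPKM in oocyte and 0.0657 and 0.0759 FPKM in ovary. Among the closest to dmrt1 were si:ch211-199g17.9 at 0.509 and an NDEL1 row (ENSDARG00000010953) at 0.676. The NDEL1 row was at 20.6 and 20.4 FPKM in testis, 0.369 and 1.38 FPKM in oocyte and 0.777 and 0.214 FPKM in ovary, so that, unlike for dmrt1, its oocyte and ovary values overlapped.

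Among the features nearest in profile to gsdf were the creatine kinase gene CKB (ENSDARG00000069752) at a distance of 2.61 and insl3 at 3.07. CKB was at 452 and 492 FPKM in testis, 5.78 and 3.6 FPKM in oocyte and 32.4 and 54.4 FPKM in ovary, and like gsdf it passed as lower in oocyte than in ovary, at a difference of -2.95 (limma adjusted p = 0.000449). The means of insl3 were 1437 FPKM in testis, 3.95 FPKM in oocyte and 3.76 FPKM in ovary. Distances are larger for abundant genes, whose values can differ more, so they rank features for 1 gene and do not compare the genes.

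The chromosomal neighbours of the 3 genes were taken from the gene order of the RefSeq annotation of GRCz12tu, a later assembly than that of the files, up to 5 protein-coding genes on each side. Of 29 neighbours, 22 were matched to 1 row and 15 were tested. Between testis and ovary on the deposited scale, 1 passed as higher in testis and 6 as lower, with a median of -0.66 against -0.82 for all tested features. The shares over all tested features were 16.4% higher and 43.8% lower, so the counts of the neighbours lie near the background. The neighbour that passed as higher was stard4, near gsdf, a gene for a cholesterol-binding protein, at a difference of 2.82 (limma adjusted p = 0.000201). It was tested only through testis, so its call is no support for the difference. Scaling moved calls of 2 neighbours: under quantile normalization smarca2 also passed as higher, at 1.16, and nup54 no longer passed as lower, at -0.53, nor did it after rescaling without features above 10000 FPKM, at -0.99.

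Directly beside amh lie oaz1a and dot1l. The gene oaz1a, which encodes an inhibitor of polyamine synthesis, averaged 188 FPKM in testis, 169 FPKM in oocyte and 308 FPKM in ovary. The histone methyltransferase gene dot1l averaged 0.417 FPKM in testis, 10.2 FPKM in oocyte and 0.559 FPKM in ovary. Neither resembled amh. In that annotation the span of dmrt1 overlaps those of dmrt3a, dmrt2a, smarca2 and adamts3, and the span of gsdf overlaps that of ppef2b. How fragments of overlapping genes were assigned is not given in the sources used here, and its part in the values of dmrt1 and gsdf was not tested. The matched overlapping neighbours of dmrt1 were at means of at most 3.67 FPKM in any tissue, the value of smarca2 in testis. In oocyte smarca2 was at 2.48 and 4.54 FPKM and in ovary at 3.19 and 2.54 FPKM, above dmrt1 in each of these libraries. For both genes, replicate 2 was the higher in oocyte and replicate 1 in ovary. The values of ppef2b were not analysed here.

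**Figure D4:**
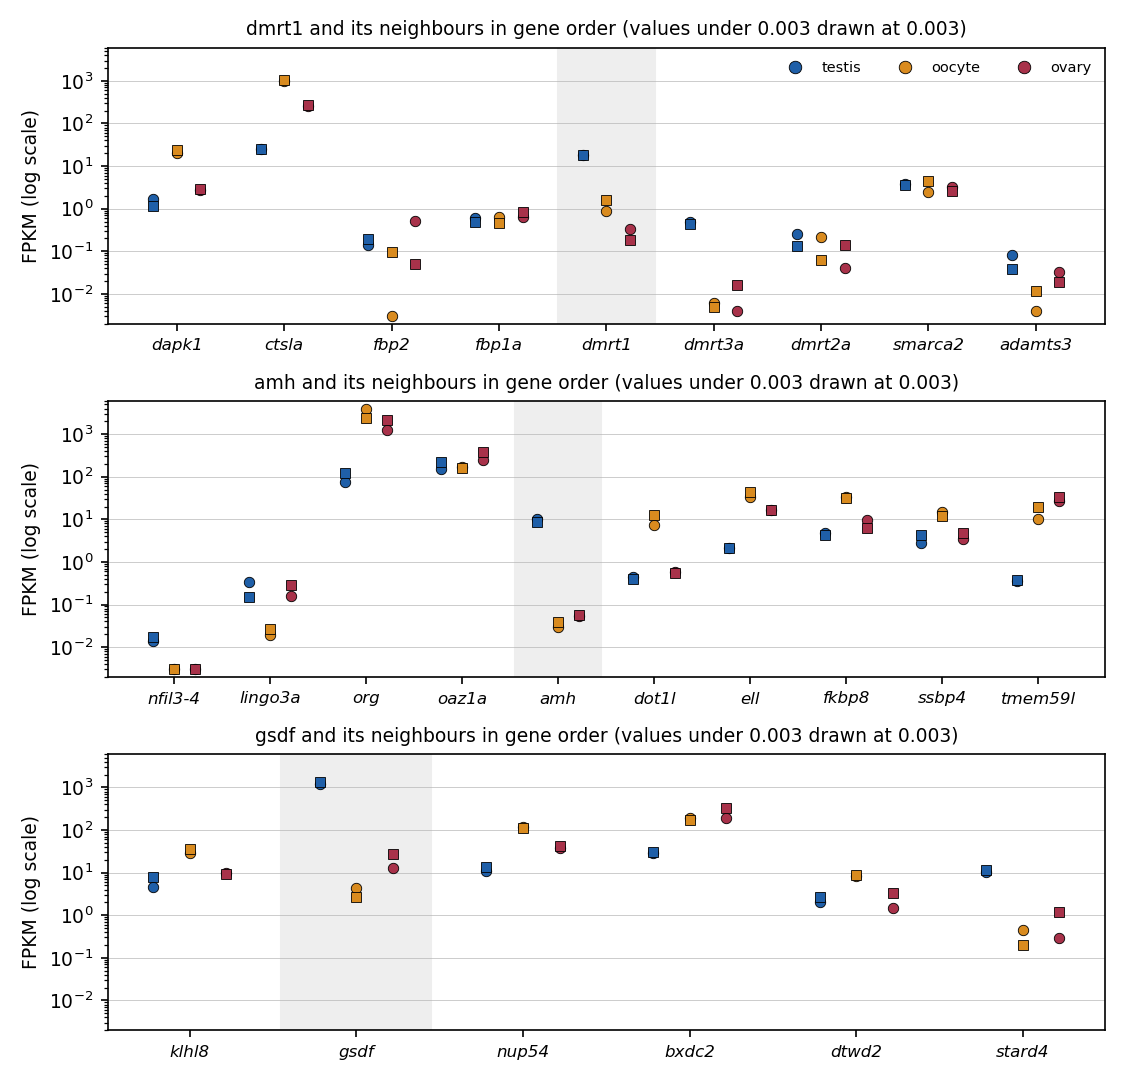
FPKM on a log axis of dmrt1, amh and gsdf (shaded) and of their matched neighbours in RefSeq gene order, with circles for replicate 1 and squares for replicate 2 of testis, oocyte and ovary. Values under 0.003 FPKM are drawn at 0.003. Among the neighbours tested, stard4 alone passed as higher in testis than in ovary on the deposited scale, and it was tested only through testis.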

How the data were processed

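Per the labels' protocols, total RNA was extracted with TRIzol, treated with DNase and made into strand-specific TruSeq libraries, read as pairs of 76 bases. The authors deposited 1 table of FPKM values, a column per library. TopHat, Bowtie2 and Cuffnorm and the build GRCz10 are named in the submitters' processing notes, without versions. Annotation, strand setting and scaling between libraries are not given in the sources used here, and depth is unknown, so no counting interval is given.

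FPKM values were tested as log2(FPKM + 1) with limma 3.58.1 in R 4.3.3 (lmFit with a mean per tissue over all 6 libraries, and eBayes with trend=TRUE, two-sided). Features with at least 1 FPKM in at least 2 libraries entered. The fit was tested on simulated data. Symbols came from a name table that paired 26411 of 32253 features, in part with the upper-case symbol and no paralog letter. List symbols were matched regardless of case, then without a final a or b.

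The members, lists and tests were chosen with earlier results of these data known. The features named were the members, the 3 closest in profile to each (of which 2 are not reported here), and from each list the most abundant and a few given by name. The choice of named list genes was changed, and that of neighbours narrowed, after values were seen. Alternatives were another pseudocount, other filters and scalings, no variance trend, a replicate block, fits of 2 tissues, and leaving out each library.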

Additional observations from a re-analysis of the deposited data

How the results depend on the processing

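For the 9 differences of dmrt1, amh and gsdf and the 3 numbers of features that passed, 192 combinations with an alternative were computed, and 188 had the reported direction and side of the threshold, or a number within 1.5 times the reported one. The difference of dmrt1 between oocyte and ovary passed with a pseudocount of 0.1 (1.89) and after rescaling without features above 10000 FPKM (1.23), and without 1 library it ranged from 0.58 to 1.07. That of amh reversed to 0.0026 under quantile normalization. For 29 differences of other named genes, 7 of 458 combinations lost a call (acvr1l, SMAD5 and nup54) and 1 gained it (smarca2), and the cause was not tested. Leaving out libraries gave 7645 to 8299 features between testis and ovary, 8747 to 9405 between testis and oocyte and 6352 to 6949 between oocyte and ovary. Scaling moved the direction of calls. Calls higher in testis than in ovary made up 27.2% of all calls as reported, 36.0% under median-of-ratios scaling and 47.6% under quantile normalization.

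Nothing states whether libraries of equal replicate number belong together, and the following values, which differ in sign between pairs of tissues, cannot decide it. Across features, the correlation of replicate differences was -0.346 between oocyte and ovary, 0.243 between ovary and testis and -0.214 between oocyte and testis. With the replicate block, 8217, 9273 and 6679 features passed in the 3 comparisons, against 8262, 9311 and 6716 without it, and no call of dmrt1, amh or gsdf changed. With the oocyte numbers exchanged, a block added after seeing the data, 8365, 9386 and 6819 passed. With 2 libraries per tissue and unknown depth, levels near 0, such as those of amh in oocyte and ovary, are poorly resolved.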
